A study of Mus musculus with 8 samples.

Results

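The genes described are 10 of the bone morphogenetic protein (BMP) pathway, Bmp1, Bmp2, Bmp4, Bmpr1a, Grem1, Id1, Id2, Id3, Smad6 and Smad7, among 23500 genes with values in the deposited tables. They were chosen by name, with earlier results of these data known, so their shares beside those of all genes are a description. Each was found through its RefSeq transcripts, whose FPKM (fragments scaled to transcript length and to the mapped fragments of the library) were summed per gene. Polyadenylated RNA came from mesenchymal stem cells of mouse bone marrow, which can give rise to bone, cartilage and fat cells, and every culture carried the p53 knockout and was below passage 20. The cFos arm had received a retrovirus with cFos cDNA, the AP-1 subunit encoded by Fos, and the Luc arm a retrovirus with luciferase, an enzyme that served as the control. Each arm held 4 libraries, 1 from each of the single clones kept as lines, clone 2, clone 4, clone 8 and clone 12. The spread between libraries of an arm thus holds the spread between clones and that between single libraries, which cannot be told apart. The labels give neither the promoter of the retrovirus nor the deleted part of the p53 gene.

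BMPs are secreted dimers of the TGF-beta superfamily that bind type I and type II receptor kinases, which phosphorylate the receptor-regulated Smads. Those Smads enter the nucleus with Smad4 and switch on direct targets, among them the Id genes and the inhibitory Smads, which feed back on the receptors. In marrow stroma the pathway is known for driving bone and cartilage formation, and secreted antagonists such as gremlin hold the ligands back. Bmp1 bears the family name but encodes a metalloprotease that trims procollagens and cleaves the BMP antagonist chordin.

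Of the 10 genes, 5 had lower FPKM in the cFos library than in the Luc library of every clone: the targets Id3 and Id2, the inhibitory Smad gene Smad6, the ligand gene Bmp4 and the antagonist gene Grem1. Their upstream sequences are shown because these are the members that passed a test in any fit. Each is the 250 bases before the RefSeq start in build GRCm38.p6, on the strand of the gene, 5′ to 3′, with matches to the Smad box CAGAC, the GC-rich Smad element GGCGCC or the AP-1 site TGANTCA, searched on both strands, in capitals.
Id3, chr4:136143572-136143821, plus strand: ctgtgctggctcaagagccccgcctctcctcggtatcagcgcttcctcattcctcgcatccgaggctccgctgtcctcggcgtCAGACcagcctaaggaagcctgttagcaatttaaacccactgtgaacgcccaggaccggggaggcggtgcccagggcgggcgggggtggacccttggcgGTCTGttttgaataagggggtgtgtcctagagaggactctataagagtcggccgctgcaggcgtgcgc
Id2, chr12:25096093-25096342, minus strand: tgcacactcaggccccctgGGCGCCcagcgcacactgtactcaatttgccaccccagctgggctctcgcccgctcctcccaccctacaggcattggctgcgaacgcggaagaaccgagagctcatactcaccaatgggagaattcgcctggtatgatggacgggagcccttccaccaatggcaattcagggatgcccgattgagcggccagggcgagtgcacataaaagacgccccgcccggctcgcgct
Smad6, chr9:64022060-64022309, minus strand: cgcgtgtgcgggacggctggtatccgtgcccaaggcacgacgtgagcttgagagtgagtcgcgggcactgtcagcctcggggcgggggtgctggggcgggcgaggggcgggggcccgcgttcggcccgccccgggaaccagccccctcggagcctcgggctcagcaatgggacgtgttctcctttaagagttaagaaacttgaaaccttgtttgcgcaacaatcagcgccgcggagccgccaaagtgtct
Bmp4, chr14:46390670-46390919, minus strand: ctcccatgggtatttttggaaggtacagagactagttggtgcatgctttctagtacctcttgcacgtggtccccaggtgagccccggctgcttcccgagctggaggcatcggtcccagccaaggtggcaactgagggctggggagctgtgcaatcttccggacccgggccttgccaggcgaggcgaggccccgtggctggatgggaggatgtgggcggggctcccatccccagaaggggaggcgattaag
Grem1, chr2:113758649-113758898, minus strand: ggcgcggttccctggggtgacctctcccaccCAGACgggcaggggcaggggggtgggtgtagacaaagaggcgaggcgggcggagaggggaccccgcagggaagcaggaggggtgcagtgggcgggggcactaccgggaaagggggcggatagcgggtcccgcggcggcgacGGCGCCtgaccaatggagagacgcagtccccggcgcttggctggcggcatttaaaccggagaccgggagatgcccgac

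Id3 held 2 Smad boxes, Id2 held 1 GC-rich element, and Grem1 held 1 of each, while Smad6 and Bmp4 held neither in this window. Over 32851 RefSeq promoter windows of the same length, 42.2% had the Smad box and 9.59% the GC-rich element. The AP-1 site was in 6.75% of those windows and in none of the 6 members' windows for which RefSeq sequence was matched, which also include Bmpr1a with 1 GC-rich element. Id1, Bmp1, Bmp2 and Smad7 were not matched. No matches overlapped in the sequences shown, a match is not a known binding site, and no match says only that these letters are not in this window.

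The libraries held 6.93 to 9.14 gigabases of sequence on annotated transcripts, and between 10970 and 11121 genes per library reached 1 FPKM. Fos was at 589, 675, 1019 and 505 FPKM in the cFos libraries of clones 2, 4, 8 and 12, against 76.2, 41.1, 302 and 43.5 FPKM in the Luc libraries. Luc clone 8 thus had the highest Fos level of the Luc arm, and results that turn on clone 8 are given with and without it. Of 8 stromal markers 7 reached 1 FPKM in at least 4 libraries (Col1a1, Col1a2, Pdgfra, Pdgfrb, Ly6a, Prrx1 and Eng), and Thy1 did not. The 8 summed to 3121 to 4462 FPKM in cFos and 2226 to 5379 in Luc, most of it Col1a1 and Col1a2. Eng was at most 2.12 FPKM in any library. Thy1 was at 0.142, 0.398, 15.9 and 23.8 FPKM in the cFos libraries of clones 2, 4, 8 and 12. In the Luc libraries Thy1 was at 0.672, 0.0916, 0.597 and 21.9 FPKM. None of 5 endothelial markers and 1 of 7 measured blood markers (Cd14) reached 1 FPKM in at least 4 libraries. Ptprc, Itgam, Adgre1, Pecam1, Cdh5 and Tie1 stayed below 0.1 FPKM in every library. The blood markers summed to 3.02 to 3.55 FPKM in cFos and 3.50 to 13.7 in Luc, and the endothelial markers to at most 0.150 FPKM in cFos and 0.391 in Luc. The 4 adipocyte markers summed to 106 to 860.3 FPKM in cFos and 32.9 to 490.1 in Luc, most of it Fabp4, which was higher in cFos in all 4 clones, while Adipoq and Cfd were lower in cFos in all 4 and Plin1 in 3 of them. The 4 osteoblast markers summed to 36.8 to 155 FPKM in cFos and 20.6 to 155.5 in Luc, most of it Alpl. Alpl and Sp7 were higher in cFos in clones 2 and 4 and lower in clones 8 and 12. Ibsp was lower in cFos in all 4 clones, and Bglap in all but clone 4. The 4 chondrocyte markers summed to 0.426 to 10.7 FPKM in cFos and 1.11 to 36.1 in Luc. Of these, Matn3 and Col2a1 were lower in cFos in all 4 clones, Col2a1 at 0.217, 0.127, 0.0213 and 0.741 FPKM in the cFos libraries of clones 2, 4, 8 and 12, against 15.7, 0.503, 0.182 and 35.2 FPKM in the Luc libraries. Comp was higher in cFos in clones 4 and 8 and lower in clones 2 and 12. Acan was higher in cFos in clones 4, 8 and 12 and lower in clone 2. The part of these marker levels in the results below was not tested.

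Whether the transduction of cFos changed these genes was tested with limma on log2(FPKM + 0.5), on the 11162 genes that reached 1 FPKM in 4 or more libraries, at a Benjamini-Hochberg adjusted p under 0.05. Of the 10 genes, 9 met the filter, and Bmp2 did not. Id3 and Smad6 fell, no member rose, and 7 did not pass, where 2.62% of all tested genes fell and 2.92% rose. With the clone as a block, which compares the arms within each line, 5 members fell (Id3, Smad6, Id2, Bmp4 and Grem1), where 4.28% of all tested genes fell and 4.51% rose. The 5 genes were lower in cFos in all 4 clones, as were 20.9% of all tested genes, and for Id3 and Smad6 every cFos library was below every Luc library, as for 7.8% of all tested genes. The median log2 fold change was -0.76 over the 9 tested members and -0.06 over all tested genes. In bulk RNA, fewer cells of a type and less RNA per cell cannot be told apart.

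**Figure D1:**
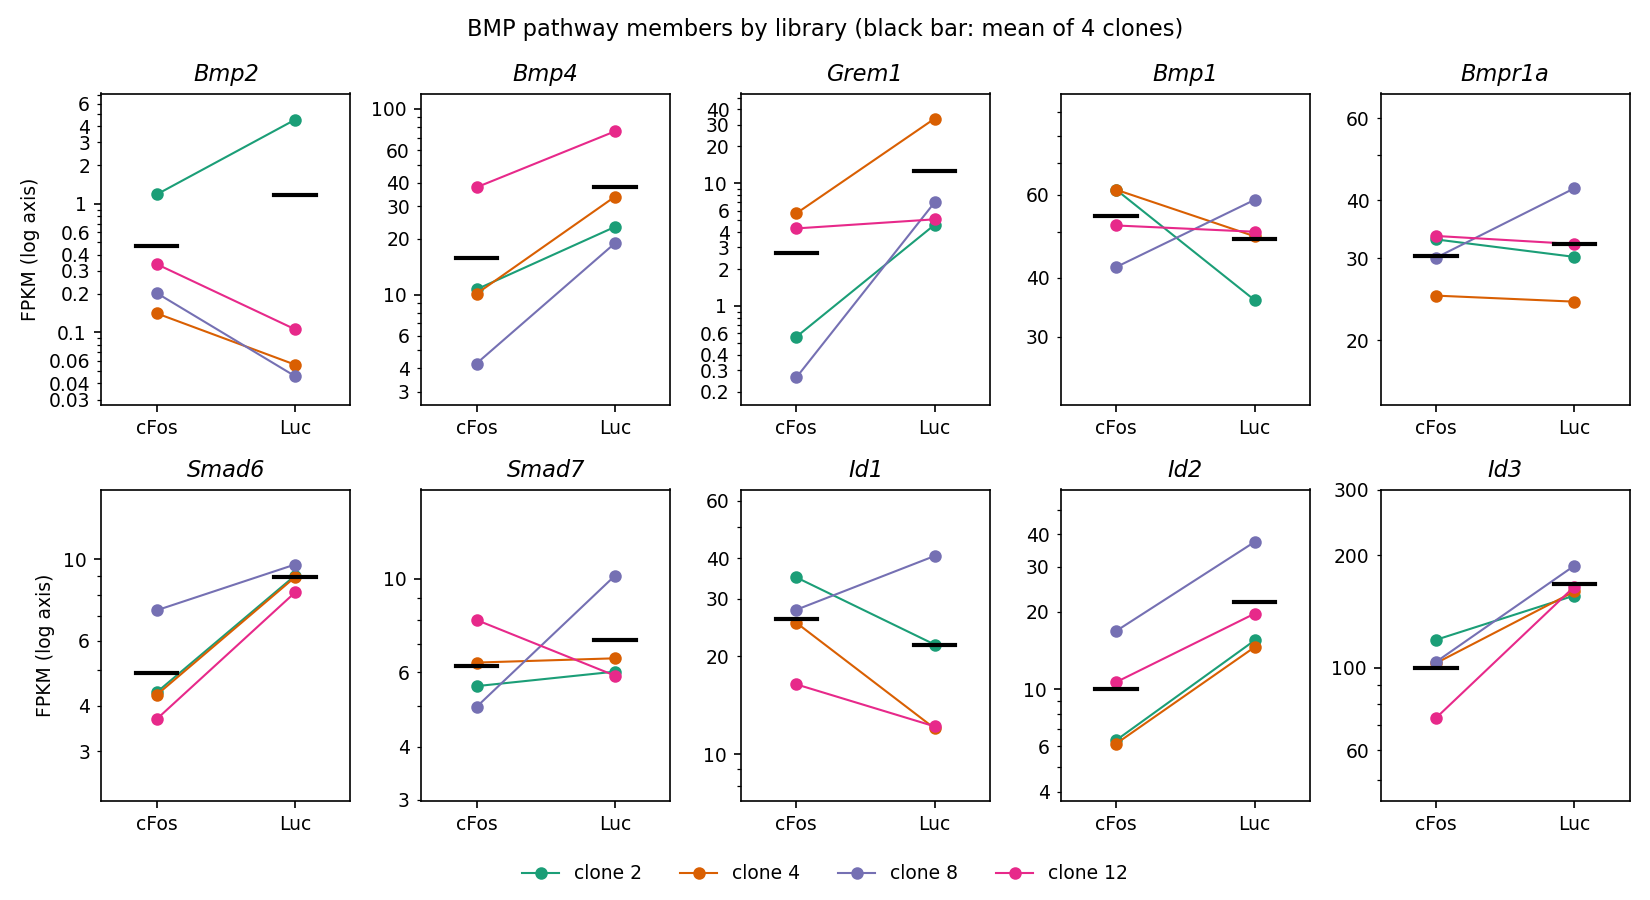
FPKM of the 10 genes (log axes, each with its own range) in the cFos and Luc libraries, with a line for each clone and a black bar for the mean of 4. Id3, Id2, Smad6, Bmp4 and Grem1 are lower in cFos in every clone, and only Id3 and Smad6 have arms that do not overlap, while Id1, Bmp1, Bmpr1a, Smad7 and Bmp2 have clones on both sides.

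Of Bmp4 and Bmp2, the ligand genes among the members, Bmp4, which encodes a ligand of bone and mesoderm formation (chr14:47003196-47010274, mm9, 1 listed transcript), was the more abundant. It was at 10.7, 10.1, 4.25 and 37.8 FPKM in the cFos libraries of clones 2, 4, 8 and 12, against 23.1, 33.7, 18.9 and 75.8 FPKM in the Luc libraries. Clone 12 was the highest of both arms and clone 8 the lowest of both, and the arms overlapped because the cFos library of clone 12 exceeded the Luc libraries of the other clones. The cFos level was 0.461, 0.30, 0.225 and 0.499 of the Luc level in the same clone. The log2 fold change was -1.45 (SE 0.62, limma adjusted p = 0.238) without the block, so Bmp4 did not pass, and leaving out 1 library gave -2.002 (without cFos clone 12) to -0.998 (without cFos clone 8), none of which passed. With the clone as a block it fell (SE 0.20, adjusted p = 0.0103), and it also fell with the block when both libraries of clone 8 were left out (-1.25, adjusted p = 0.0149).

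Bmp2, whose protein induces bone in ectopic sites (chr2:133377895-133388632), was near the lower end of detection outside clone 2. It was at 1.18, 0.140, 0.202 and 0.339 FPKM in the cFos libraries of clones 2, 4, 8 and 12, against 4.50, 0.0560, 0.0456 and 0.106 FPKM in the Luc libraries. Clone 2 was highest in both arms and lower in cFos. The other 3 clones were higher in cFos, by 2.51-fold, 4.43-fold and 3.21-fold in clones 4, 8 and 12, at levels of at most 0.339 FPKM. The authors' confidence limits were wide at these levels. They overlapped in clone 4, at 0.0776 to 0.203 FPKM in cFos against 0.0164 to 0.0957 FPKM in Luc. They did not overlap in clone 8 (0.124 to 0.280 against 0.00837 to 0.0829 FPKM) or in clone 12 (0.231 to 0.447 against 0.0491 to 0.162 FPKM). Bmp2 was not tested with the filter, and with no filter on low values its log2 fold change was -0.13, which did not pass, and the mean difference was 0.23 with a pseudocount of 0.1.

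Among the other 12 ligand genes listed, Bmp5 alone met the filter. It was at 0.00938 to 6.94 FPKM in cFos and 0.00888 to 35.4 in Luc, with clone 8 highest in both arms, and did not pass (limma adjusted p = 0.735). In clone 8 Bmp5 exceeded Bmp4 in both arms. Gdf7, a growth and differentiation factor, averaged 0.135 ± 0.177 FPKM in cFos and 1.10 ± 1.74 in Luc (SD, n = 4 each). The Luc mean of Gdf7 rested on clone 4, at 3.70 FPKM.

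Grem1 encodes gremlin, a secreted protein that binds BMP2 and BMP4 and keeps them from their receptors (chr2:113588832-113598805). It was at 0.560, 5.69, 0.262 and 4.29 FPKM in the cFos libraries of clones 2, 4, 8 and 12, against 4.60, 33.7, 7.004 and 5.08 FPKM in the Luc libraries. Clone 4 was highest in both arms, the difference was largest in clone 8 and small in clone 12, and the arms overlapped. The cFos level was 0.122, 0.169, 0.0373 and 0.843 of the Luc level in the same clone. The log2 fold change was -2.06 (SE 0.82, limma adjusted p = 0.201) without the block and did not pass, and leaving out 1 library gave -2.56 (without cFos clone 4) to -1.43 (without Luc clone 4), none of which passed. With the clone as a block Grem1 fell (SE 0.46, adjusted p = 0.0440), and that call ended without clone 8 (-1.65, adjusted p = 0.0821).

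The ratio of Bmp4 FPKM to Grem1 FPKM was 19.0, 1.78, 16.3 and 8.83 in the cFos libraries of clones 2, 4, 8 and 12. In the Luc libraries it was 5.03, 0.999, 2.70 and 14.9. It was higher in cFos in clones 2, 4 and 8 and lower in clone 12, and the arms overlapped. The cFos ratios of clones 2 and 8 rested on low Grem1 levels. The authors' confidence limits of Grem1 there were 0.374 to 0.747 FPKM in clone 2 and 0.125 to 0.398 FPKM in clone 8. Other antagonists are not part of this ratio.

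Of the other 13 antagonist and modulator genes 7 were tested, and none passed without the block. The fitted log2 fold change was negative for 5 of the 7 and positive for 2, Twsg1 and Chrdl1. Fstl1, a secreted follistatin-like glycoprotein and the most abundant of them, was at 242 ± 57.0 FPKM in cFos and 411 ± 148 in Luc (SD, n = 4 each; log2 fold change -0.73, SE 0.27, limma adjusted p = 0.174). Fstl1 was lower in cFos in all 4 clones and fell with the clone as a block (limma adjusted p = 0.0288), a call that ended without clone 8 (0.0550). Twsg1, twisted gastrulation, which binds BMPs together with chordin, averaged 59.2 ± 10.8 FPKM in cFos and 45.5 ± 2.95 in Luc and did not pass (adjusted p = 0.226). Fst, follistatin, averaged 2.38 ± 0.895 FPKM in cFos and 6.98 ± 4.55 in Luc, was lower in cFos in 3 of 4 clones and did not pass (log2 fold change -1.05, SE 0.60, adjusted p = 0.374; 0.244 with the clone as a block). Without Luc clone 4, its lowest library at 0.913 FPKM, Fst fell (-1.73, adjusted p = 0.0163). Nog and Chrd, the classical antagonists noggin and chordin, were at most 0.204 and 1.37 FPKM in any library and were not tested.

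Bmp1 (chr14:70874362-70920067), the procollagen and chordin protease, was at 61.4, 61.5, 42.1 and 51.6 FPKM in the cFos libraries of clones 2, 4, 8 and 12, against 35.9, 49.0, 58.5 and 50.1 FPKM in the Luc libraries. It was higher in cFos in clones 2 and 4, close to level in clone 12 and lower in clone 8, and the arms overlapped (log2 fold change 0.17, SE 0.18, limma adjusted p = 0.664). Without both libraries of clone 8 the log2 fold change was 0.379, which did not pass (limma adjusted p = 0.267, and 0.220 with the block). The gene is the sum of a coding transcript, NM_009755, and a transcript that RefSeq lists as non-coding, NR_033241. The non-coding entry held 15.6%, 16.7%, 11.5% and 12.4% of the sum in the cFos libraries of clones 2, 4, 8 and 12, against 21.7%, 17.4%, 16.7% and 18.4% in the Luc libraries. That share was lower in cFos in each clone, with cFos clone 4 and Luc clone 8 nearly level. The split rests on the authors' model for shared reads, and the difference in share was not tested.

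Bmp1 works with enhancer proteins that bind procollagen, encoded by Pcolce and Pcolce2, and Pcolce2 was the 1 gene of the wider list that rose without the block. Pcolce2 was at 59.4, 65.1, 181 and 39.1 FPKM in the cFos libraries of clones 2, 4, 8 and 12, against 1.86, 5.24, 5.16 and 2.79 FPKM in the Luc libraries. Every cFos library was above every Luc library, as in 5.86% of all tested genes. The log2 fold change was 4.19 (SE 0.47, limma adjusted p = 0.00222), and the call held without each of the 8 libraries. Pcolce averaged 628 ± 151 FPKM in cFos and 535 ± 126 in Luc (SD, n = 4 each) and did not pass (adjusted p = 0.645).

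Bmpr1a, which encodes the type I receptor ALK3 (chr14:35224254-35315732), was at 32.9, 24.9, 30.1 and 33.5 FPKM in the cFos libraries of clones 2, 4, 8 and 12, against 30.2, 24.2, 42.4 and 32.2 FPKM in the Luc libraries. The arms overlapped, and the cFos library was slightly higher in clones 2, 4 and 12 and lower in clone 8. The log2 fold change was -0.07 (SE 0.18, limma adjusted p = 0.878), and without clone 8 it was 0.07 (adjusted p = 0.853). None of the 5 other tested receptor and co-receptor genes passed. Acvr1, the type I receptor ALK2, averaged 31.7 ± 4.30 FPKM in cFos and 35.4 ± 5.74 in Luc, and Bmpr2, the type II receptor, 13.3 ± 2.07 in cFos and 14.8 ± 3.70 in Luc (SD, n = 4 each). Bmpr1b, the other classical type I receptor, stayed below the filter in every library and was not tested.

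**Figure D2:**
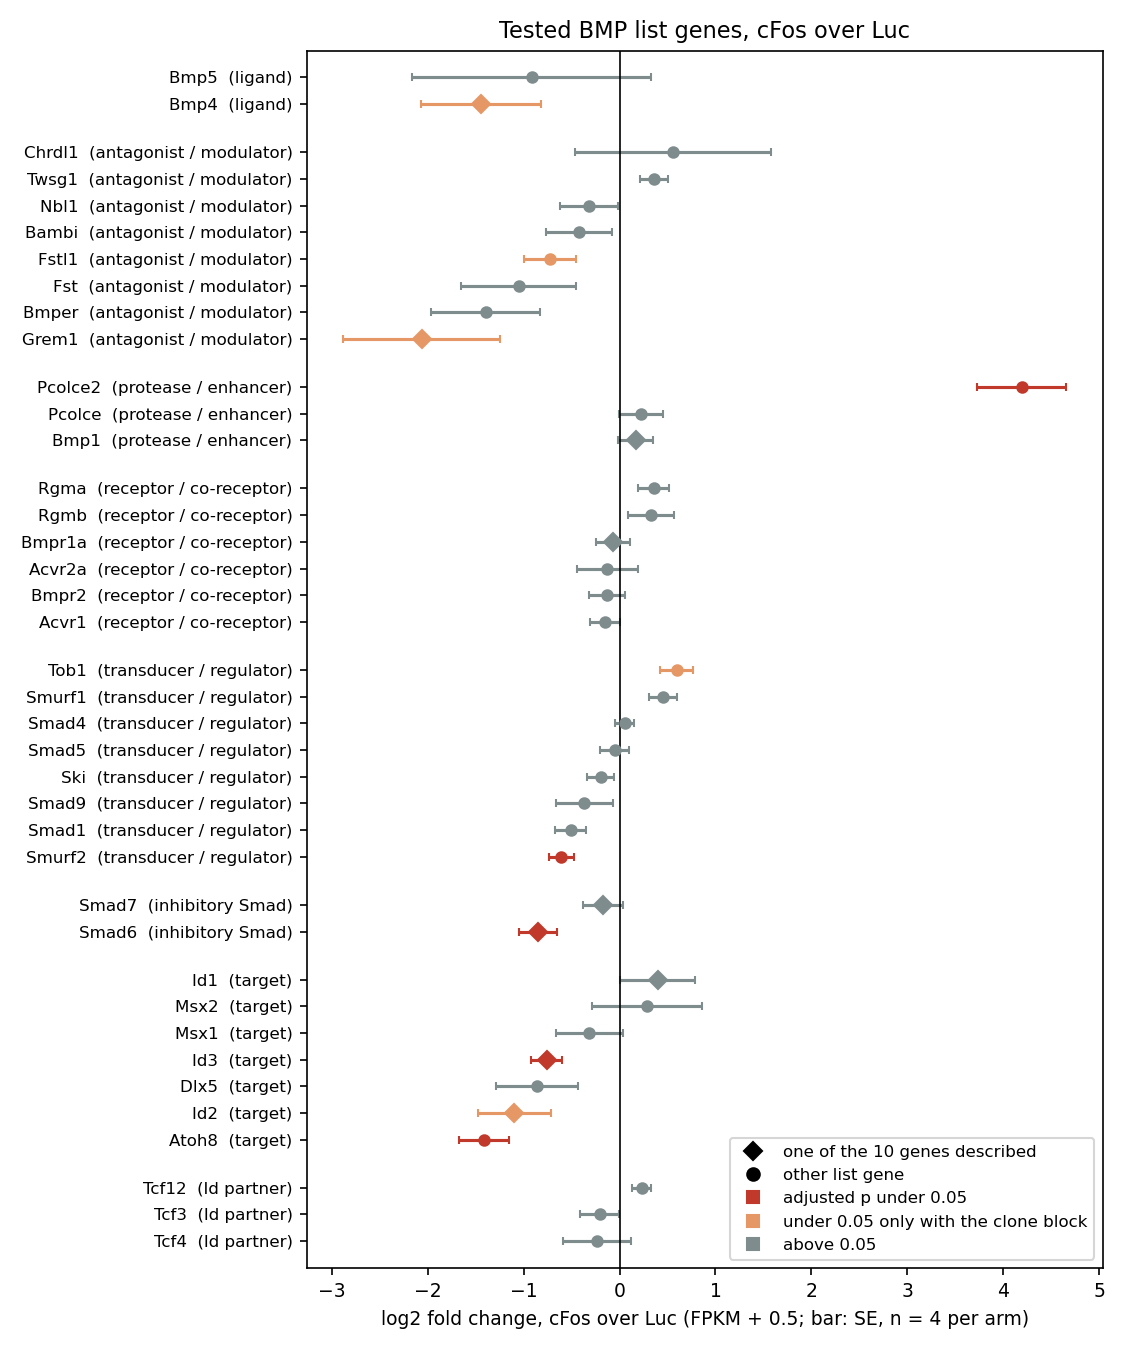
Log2 fold change of cFos over Luc for the 39 tested genes of the BMP list, by role, with the SE of the limma fit without the clone block. Pcolce2 stands apart at 4.19, and Atoh8, Smad6, Id3 and Smurf2 are the genes that fell without the block.

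Of the inhibitory Smad genes, Smad6 fell and Smad7 did not pass. Smad6, which blocks BMP signalling at the receptor and at Smad1 (chr9:63800883-63869866), was at 4.35, 4.27, 7.26 and 3.67 FPKM in the cFos libraries of clones 2, 4, 8 and 12, against 9.03, 8.94, 9.68 and 8.12 FPKM in the Luc libraries. The arms did not overlap, and the smallest difference was that of clone 8. Smad6 fell by 0.85 on the log2 scale (SE 0.20, limma adjusted p = 0.0403; 0.0237 with the clone as a block). The call without the block ended when any library but cFos clone 8 was left out (adjusted p up to 0.122), with no filter on low values (0.112) and with median-ratio scaling (0.0526). Without both libraries of clone 8 Smad6 still fell (-1.002, limma adjusted p = 0.0157, and 0.0149 with the block).

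Smad7, which blocks both BMP and TGF-beta receptors (chr18:75527019-75555588), was at 5.57, 6.33, 4.97 and 7.99 FPKM in the cFos libraries of clones 2, 4, 8 and 12, against 6.03, 6.48, 10.2 and 5.90 FPKM in the Luc libraries. The arms overlapped, and the Luc library of clone 8 stood above the rest. The log2 fold change was -0.17 (SE 0.21, limma adjusted p = 0.697), and without clone 8 it was 0.09 (adjusted p = 0.807).

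Of the 8 transducer and regulator genes, all tested, Smurf2 fell, none rose and 7 did not pass. Smurf2, a ubiquitin ligase that targets Smads and receptors, averaged 15.9 ± 2.15 FPKM in cFos and 24.4 ± 1.83 in Luc (SD, n = 4 each; log2 fold change -0.61, SE 0.13, limma adjusted p = 0.0294). Its call ended with the clone as a block (0.0501), with no filter (0.0561), without both libraries of clone 8 (0.108), and without any single library except cFos clone 12 and Luc clone 12 (up to 0.0990). Tob1, an antiproliferative protein known to restrain BMP Smads, averaged 21.4 ± 3.31 FPKM in cFos and 14.1 ± 2.64 in Luc. Tob1 did not pass without the block (log2 fold change 0.60, SE 0.17, adjusted p = 0.0842), and rose with it (0.0219). Smad4, the shared partner of the receptor-regulated Smads, averaged 29.9 ± 1.10 FPKM in cFos and 28.8 ± 1.55 in Luc, and Ski, a Smad corepressor, 24.3 ± 2.48 in cFos and 28.1 ± 4.24 in Luc, and neither passed.

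The Id genes encode helix-loop-helix proteins without a DNA-binding region, which hold E proteins away from DNA and so restrain differentiation factors. Id3 (chr4:135699737-135701307) was the most abundant of the 10 genes in every library. It was at 119, 103, 104 and 73.4 FPKM in the cFos libraries of clones 2, 4, 8 and 12, against 156, 160.1, 188 and 165 FPKM in the Luc libraries. The arms did not overlap, the Luc libraries lay within 1.20-fold of each other, and clone 12 had the largest difference and clone 2 the smallest. Id3 fell by 0.76 on the log2 scale (SE 0.16, limma adjusted p = 0.0273; 0.0302 with the clone as a block). Its call without the block ended with no filter (0.0826) and without Luc clone 2, cFos clone 4, Luc clone 4, cFos clone 8, Luc clone 8 or Luc clone 12 (up to 0.0719). Leaving out 1 library gave log2 fold changes of -0.85 to -0.62. The call also ended without both libraries of clone 8 (0.0911, and 0.0638 with the block).

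Id2 (chr12:25778664-25780957) was at 6.34, 6.14, 16.9 and 10.7 FPKM in the cFos libraries of clones 2, 4, 8 and 12, against 15.5, 14.6, 37.4 and 19.7 FPKM in the Luc libraries. Clone 8 was highest in both arms, and its cFos library exceeded the Luc libraries of clones 2 and 4, so the arms overlapped. The cFos level was 0.409, 0.421, 0.451 and 0.542 of the Luc level in the same clone. Id2 did not pass without the block (log2 fold change -1.10, SE 0.38, limma adjusted p = 0.141), nor when 1 library was left out (-1.38 without cFos clone 8 to -0.81 without Luc clone 8). It fell with the clone as a block (SE 0.12, adjusted p = 0.00559), and also then without clone 8 (0.0130).

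Id1 (chr2:152562010-152563146) varied in direction between clones. It was at 34.9, 25.35, 27.8 and 16.4 FPKM in the cFos libraries of clones 2, 4, 8 and 12, against 21.7, 12.0, 40.7 and 12.2 FPKM in the Luc libraries. It was higher in cFos in clones 2, 4 and 12, by 1.61-fold, 2.11-fold and 1.35-fold, and lower in clone 8, at 0.684 of the Luc level, and the arms overlapped. The log2 fold change was 0.40 (SE 0.39, limma adjusted p = 0.622; 0.372 with the clone as a block), and leaving out 1 library gave 0.18 (without Luc clone 4) to 0.76 (without Luc clone 8), none of which passed. Without clone 8 it was 0.71, which did not pass with the block (adjusted p = 0.0542) or without it (0.282).

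**Figure D3:**
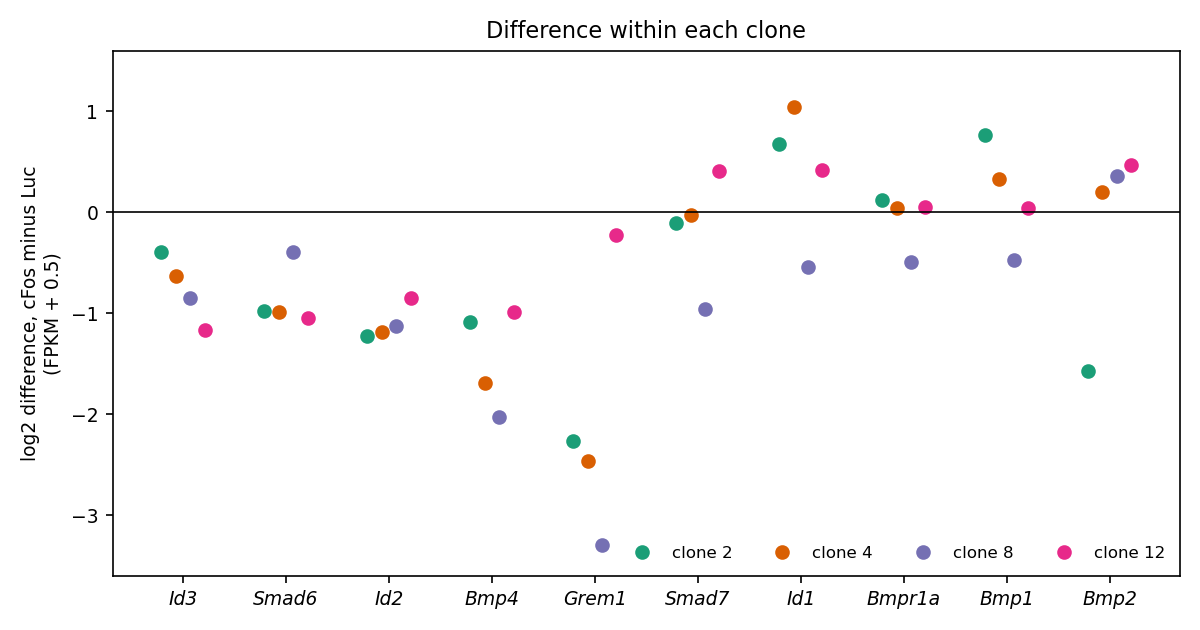
Difference between the cFos and the Luc library of the same clone, in log2(FPKM + 0.5), for the 10 genes. Id3, Smad6, Id2, Bmp4 and Grem1 lie below 0 in all 4 clones, and clone 8 lies on the other side of 0 from clones 2, 4 and 12 for Id1, Bmpr1a and Bmp1.

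The make-up of the Id transcripts was compared by summing Id1, Id2, Id3 and Id4. The sum was 161, 135, 149 and 101 FPKM in the cFos libraries of clones 2, 4, 8 and 12, against 206, 187, 272 and 197 FPKM in the Luc libraries, and the arms did not overlap. Id3 made up 74.0%, 76.5%, 69.7% and 72.7% of the sum in cFos, against 75.7%, 85.6%, 69.1% and 83.6% in Luc. The sum is thus mostly Id3, whose arms also did not overlap, and is not a result apart from it. Id1 made up 21.8%, 18.8%, 18.7% and 16.2% of the sum in cFos, against 10.5%, 6.42%, 14.97% and 6.17% in Luc. The Id1 share was thus higher in cFos in every clone, clone 8 included, where Id1 itself was lower. The ratio of Id3 to Id1 was 3.40, 4.06, 3.73 and 4.47 in cFos and 7.18, 13.3, 4.61 and 13.5 in Luc. These sums and ratios were described and not tested. Id4 was at most 0.545 FPKM in cFos, against 13.0, 0.401, 5.85 and 0.553 FPKM in the Luc libraries, and did not meet the filter.

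**Figure D4:**
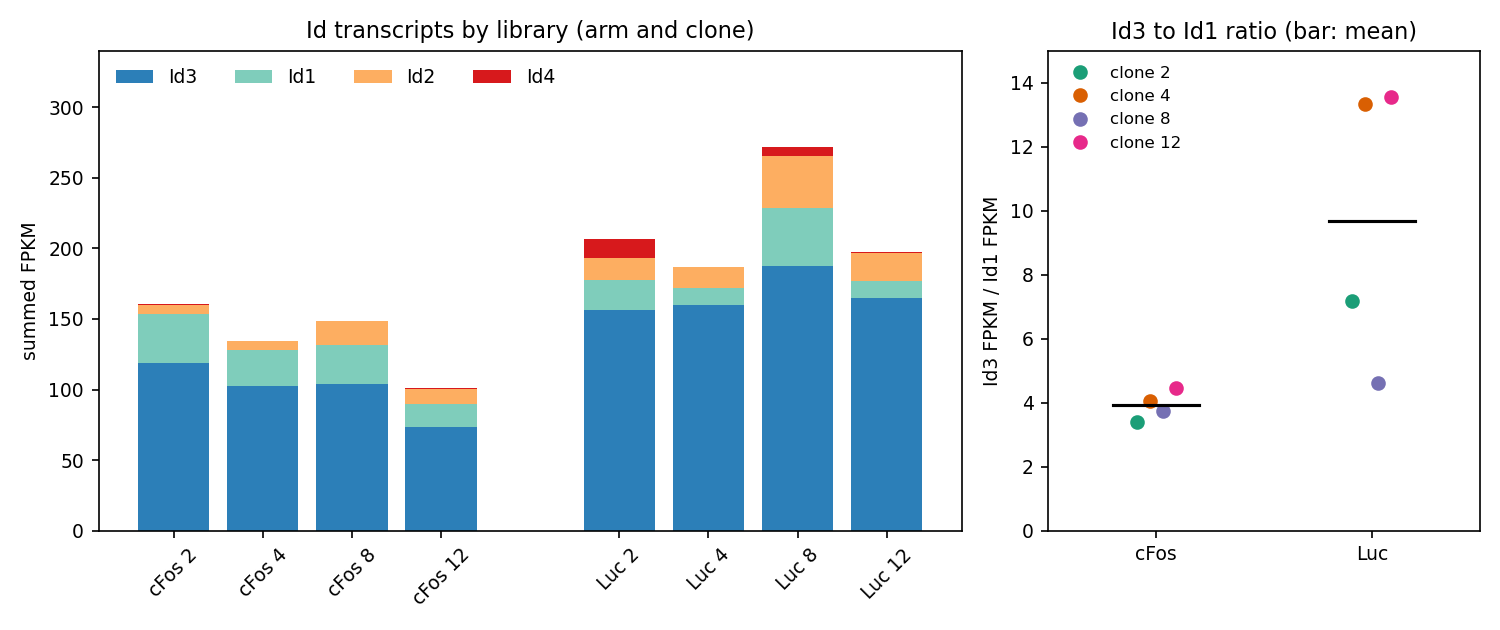
Left, FPKM of Id3, Id1, Id2 and Id4 stacked by library. Right, the ratio of Id3 to Id1 FPKM by library with the mean of each arm, 3.91 in cFos and 9.67 in Luc. The cFos sums are all below the Luc sums, and the cFos ratios, up to 4.47, lie below the lowest Luc ratio of 4.61.

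Of the other 6 target genes 4 were tested, and 1 fell. Atoh8, a helix-loop-helix factor induced by BMP signals, was at 5.60, 7.19, 11.7 and 4.96 FPKM in the cFos libraries of clones 2, 4, 8 and 12, against 15.4, 20.9, 25.6 and 17.2 FPKM in the Luc libraries. The arms did not overlap, and the cFos level was 0.288 to 0.456 of the Luc level in the same clone. Atoh8 fell by 1.41 on the log2 scale (SE 0.26, limma adjusted p = 0.0175; 0.00479 with the clone as a block), a call that ended with no filter (0.0847), without cFos clone 2 (0.0648) and without cFos clone 4 (0.0538). Dlx5, a homeobox gene of the bone lineage, averaged 2.60 ± 0.950 FPKM in cFos and 5.76 ± 3.52 in Luc (SD, n = 4 each) and did not pass (adjusted p = 0.300). None of the 3 genes of E proteins, the partners of Id proteins, passed: Tcf12 averaged 43.5 ± 2.15 FPKM in cFos and 37.0 ± 1.54 in Luc, and Tcf3 24.8 ± 5.11 in cFos and 28.8 ± 6.32 in Luc.

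Over the whole list of 65 BMP genes, all with values in the tables, 39 were tested, of which 1 rose, 4 fell and 34 did not pass, where 2.92% of all tested genes rose and 2.62% fell. In the blocked fit, 2 of them rose and 7 fell, where 4.51% of all tested genes rose and 4.28% fell. The members already described made up 2 of the 4 falls, and 5 of the 7 with the block. Of the 30 tested list genes that are not members, 1 rose and 2 fell, and with the block 2 rose and 2 fell. The median log2 fold change of those 30 was -0.175. The median log2 fold change of the 39 was -0.20, beside -0.06 over all tested genes, of which 58.3% had a negative value. The count of 4 was 0 without cFos clone 4 (by limma, with 6 at an unadjusted p under 0.05), 1 without cFos clone 2, Luc clone 2 or Luc clone 8, and 2 without cFos clone 8, Luc clone 4 or Luc clone 12. The 2 without Luc clone 4 were Atoh8 and Fst. It was also 2 without both libraries of clone 8, and 4 with the block without clone 8.

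In order of mean level, Id3 and then Bmp1 led in both arms. In cFos they were followed by Bmpr1a at 30.4 ± 3.92 FPKM, Id1 at 26.1 ± 7.65, Bmp4 at 15.7 ± 15.03, Id2 at 9.999 ± 5.02, Smad7 at 6.22 ± 1.31, Smad6 at 4.89 ± 1.61, Grem1 at 2.70 ± 2.71 and Bmp2 at 0.466 ± 0.484 (SD, n = 4). In Luc the order after Bmp1 was Bmp4 at 37.9 ± 26.0 FPKM, Bmpr1a at 32.3 ± 7.60, Id2 at 21.8 ± 10.6, Id1 at 21.6 ± 13.5, Grem1 at 12.6 ± 14.1, Smad6 at 8.94 ± 0.638, Smad7 at 7.14 ± 2.03 and Bmp2 at 1.18 ± 2.22. The ranges of neighbours overlapped except between Id3 and Bmp1 in both arms, Bmp1 and Bmpr1a in cFos, and Smad7 and Bmp2 in Luc.

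The tested genes whose pattern over the 8 libraries was most like the mean of the standardized log2 values of Id1, Id2 and Id3 were 0610040B10Rik, Rxra, Pigp, Fosb and Ppox, with Pearson's r of 0.960 to 0.968. That mean is not a pattern the Id genes shared. Id1 had an r of 0.018 with Id2 and -0.00139 with Id3, and Id2 had 0.636 with Id3. Fosb, a Fos family gene, was at 2.63, 1.45, 8.72 and 1.10 FPKM in the cFos libraries of clones 2, 4, 8 and 12, against 12.7, 3.34, 39.8 and 4.999 FPKM in the Luc libraries. Like the other 4 genes it was highest in Luc clone 8. The 8 points share clones and arms, and the likeness is a description.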

How the data were processed

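Per the submitters' processing notes, the authors used CASAVA 1.8.2, TopHat and Cufflinks with mouse build mm9; the sources used here give no other version, option or annotation release. The deposited tables, per the file headers, list RefSeq transcripts with FPKM and its confidence limits, with coverage (a signal, mean depth per base) and with transcript length. Cufflinks estimates split shared reads between transcripts, no scaling between libraries is recorded, and no read counts are given, so no counting interval was computed.

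Of 30769 entries 30227 were named from RefSeq and 180 from GENCODE M21, and FPKM were summed per symbol; 3 genes with a failed status were left out. Coordinates of transcripts are mm9, counted from 1. Depth was coverage times length. limma 3.58.1 in R 4.3.3 (lmFit, eBayes with trend) was run on log2(FPKM + 0.5) for genes that reached 1 FPKM in 4 or more libraries, adjusted over all tested genes, two-sided at 0.05; fold changes on this scale understate those of low genes. Clone numbers pair libraries of the same line (correlations of deviations from arm means 0.174, 0.593, 0.349 and 0.437 for clones 2, 4, 8 and 12), so a blocked fit, with clone as a term, was also run. The code was tested on simulated data. Tables were joined in Python 3.11.15 (pandas 2.3.3, numpy 2.4.6) and plots drawn with matplotlib 3.10.9.

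Named are the 10 members, the list genes called in either fit, the 2 most abundant other genes of each role, and the 5 genes most like the mean of Id1, Id2 and Id3. Nog, Chrd, Chrdl1, Fst, Bmpr1b and Id4 were added after their values were seen. The members and lists were chosen with earlier results of these data known, and 1 gene of the list is not reported here. Alternatives were other pseudocounts, filters and scalings, the most abundant transcript per gene, no trend, the block, and leaving out each library. The fits that left out 1 library were run without the block, so they do not use the pairing of clones and rest on fewer libraries. Leaving out clone 8 was added after seeing the data.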

Additional observations from a re-analysis of the deposited data

Results flagged for a closer look

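Of 52 groups of 4 libraries examined (26 genes in each arm), 5 held a library far from the other 3 by Dixon's test at the 95% level. Chance flags about 1 in 20 groups where values are normally distributed. The test was run on FPKM without a log, so the count of 5 cannot be read against that rate. All 5 were Luc libraries. Bmp2 in Luc clone 2 was at 4.50 FPKM, with the nearest other Luc library at 0.106. Grem1 in Luc clone 4 was at 33.7 FPKM, with the nearest at 7.004. Smad7 in Luc clone 8 was at 10.2 FPKM, with the nearest at 6.48. Bmp5 in Luc clone 8 was at 35.4 FPKM, with the nearest at 5.73. Gdf7 in Luc clone 4 was at 3.70 FPKM, with the nearest at 0.509. No cause was tested, and each clone has 1 library per arm, so a clone and its library cannot be told apart.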

How the results depend on the processing

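All 9 tested members kept their direction under other pseudocounts, filters and scalings, the most abundant transcript and no trend, and Bmp2, listed but not tested, was -0.13 on the log2 scale and 0.23 with a pseudocount of 0.1. Direction turned for Bmpr1a (-0.07) without cFos clone 4 or Luc clone 8 (leaving out 1 library gave -0.193 to 0.0727) and without both clone 8 libraries (0.0740, with and without the block), for Smad7 (-0.17) without both clone 8 libraries (0.0906, with and without the block), and among other list genes for Bmp5 without Luc clone 8 (-1.89 to 0.16 over single libraries left out), Bmpr2 without Luc clone 8 (-0.247 to 0.0166), Msx2 without Luc clone 8 (-0.27 to 0.61), Acvr2a without Luc clone 8 (-0.31 to 0.16), Tcf4 without cFos clone 8 (-0.45 to 0.11), Smad5 without cFos clone 8 (-0.17 to 0.03) and Acvr1 without both clone 8 libraries (0.0216, with and without the block). The cause was not tested.

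With the clone as a replicate block, all genes gave 503 rises and 478 falls (326 and 293 without), the BMP list gave 2 and 7 (1 and 4 without), and Bmp4 (-1.45), Grem1 (-2.06) and Id2 (-1.10) gained a call, as Bmp4 (-1.25) and Id2 (-1.09) did with the block without clone 8, where 2 list genes rose. With no filter, which tests more genes, there were 164 rises, 83 falls and 0 falls in the list, and Smad6 (-0.85) and Id3 (-0.76) lost their calls; of the list's genes then, 8 fell at an unadjusted p under 0.05. Smad6 lost it with median-ratio scaling (-0.80), and Id3 without clone 8 (-0.73, with and without the block). Without clone 8 there were 190 falls over all genes and 2 in the list, against 430 and 4 with the block. Leaving out 1 library gave 150 to 319 rises and 85 to 295 falls over all genes, 0 to 3 falls in the list, -1.04 to -0.74 for Smad6 and -0.85 to -0.62 for Id3. With 4 libraries per arm and no read counts, low genes such as Bmp2 are limited by depth.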
